A study of Homo sapiens with 4 samples.

Results

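The proteasome subunit genes were taken from the deposited count table as the gene symbols that begin with PSMA, PSMB, PSMC, PSMD, PSME, PSMF or PSMG followed by a number. Of 54 matching symbols, 5 were antisense genes and PSMC3IP encodes a recombination factor and no proteasome subunit, which left 48 members of 27011 genes in the table. No pseudogene symbol matched. The members were compared between 2 libraries of HEK293T WT cells and 2 libraries of HELZ-null cells, all untreated, harvested the day after plating and described as biological replicates. HEK293T is an established human embryonic kidney line with a wild-type genotype in the labels, whereas the HELZ-null cells carry a frameshifting deletion, made by CRISPR/Cas9 editing, in the coding sequence of HELZ, a putative RNA helicase of the UPF1-like family with a zinc finger. Whether the null line came from a single clone is not given in the sources used here.

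The 26S proteasome degrades proteins that carry ubiquitin chains. Its barrel-shaped 20S core particle is built of alpha subunits, which form the outer rings and the gate, and beta subunits, which form the inner rings and hold the proteolytic sites. The 19S regulatory particle caps the barrel: a ring of ATPases unfolds the substrate, and the other subunits bind and remove ubiquitin. Assembly needs dedicated chaperones, alternative caps such as the PSME activators can replace the 19S particle, and interferon-inducible beta subunits can replace the constitutive catalytic ones. When proteasome activity is short, the transcription factor NFE2L1 raises the transcription of subunit genes together, through antioxidant response elements in their promoters. The comparison here asks how the mRNAs of these subunits stood in HELZ-null cells.

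Library totals ran from 41745401 to 70464140 counts. Values per library are given as CPM, the counts of a gene scaled to a library of 1000000 counts with TMM factors, and levels of different genes are compared as FPKM, counts scaled in addition to 1000 bases of gene model. A gene was called at a false discovery rate (FDR) under 0.005 in the quasi-likelihood test of edgeR, adjusted over 10978 tested genes, and log2FC is HELZ-null minus WT. HELZ itself, at chr17:65066560-65242105 of hg19, stood at 99.8 and 104 CPM in the WT libraries and at 36.98 and 37.88 CPM in the HELZ-null libraries (log2FC -1.44 ± 0.042 SE, edgeR FDR 2.13e-27), so the edited gene separated the libraries by their labels.

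The promoters of subunit genes were searched for the core of the antioxidant response element, TGACNNNGC on either strand, from 250 bases before to 50 bases after each start annotated by RefSeq on GRCh38.p14. Starts were found for 42 of the 48 members, and 15 of their 51 windows held the motif, beside 4687 of 35116 windows (13.3%) over all genes. The following 7 stretches show the motif in capitals with 10 bases on either side, read along the strand of the gene. They are given because they hold the motif shared between a core gene, base and lid genes, an activator and a chaperone whose mRNAs did not move alike.
PSMA4 (chr15:78540650-78540678, plus strand): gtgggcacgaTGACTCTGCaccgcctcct
PSMB3 (chr17:38752627-38752655, plus strand): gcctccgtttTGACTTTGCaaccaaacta
PSMC5 (chr17:63827654-63827682, plus strand): gaccggatctGCTGTGTCAgcgccgccct
PSMD3 (chr17:39980760-39980788, plus strand): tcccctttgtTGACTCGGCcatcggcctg
PSMD12 (chr17:67366724-67366752, minus strand): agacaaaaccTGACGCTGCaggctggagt
PSME1 (chr14:24136098-24136126, plus strand): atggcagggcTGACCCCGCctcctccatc
PSMG2 (chr18:12658689-12658717, plus strand): cagtttcccgTGACCCCGCggccgctctg
In PSMC5 the motif reads as the reverse complement. The match began 126 bases before the start in PSMA4, 104 in PSMB3, 57 in PSMC5, 37 in PSMD3, 165 in PSMD12, 86 in PSME1 and 39 in PSMG2. A match in these letters describes the sequence and is not a measurement of binding.

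Proteasome genes were called lower more often than higher in HELZ-null cells, and most changes were small. Of the 43 tested members, 11 fell and 2 rose, beside 15.5% of all tested genes that fell and 13.9% that rose, and 30 were not called. The log2FC of the members ran from -0.53 for PSMA4, an alpha subunit of the core, to 0.32 for PSMD10, the base assembly chaperone also known as gankyrin. All 11 genes that fell encode subunits of the core, of the regulatory particle or of an activator, and both genes that rose encode assembly chaperones. In RNA from bulk cultures, less RNA per cell and fewer cells with that RNA cannot be told apart.

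The median log2FC of the members was -0.017, beside -0.00091 for all tested genes, and their median absolute log2FC was 0.060, beside 0.11 for all tested genes. There were 26 members below 0 and 17 above 0. Scaled by library size alone, 21 members were below 0 and 22 above 0, their median was 0.017, and 5 members rose and 10 fell, beside 19.2% and 12% of all tested genes under that scaling. The 5 were PSMD10, PSMG2, PSMG4, PSMF1 and PSMD3. The WT and HELZ-null libraries did not overlap for 31 of the 43 members, as was the case for 70.6% of all tested genes. Replicates differed by a median of 0.033 in WT and 0.036 in HELZ-null on the log2 scale, so the median absolute change between genotypes was under 2 times the median difference between libraries of one genotype. Of the tested members, PSMG4 had the widest spread in both groups (0.17 and 0.12).

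**Figure D1:**
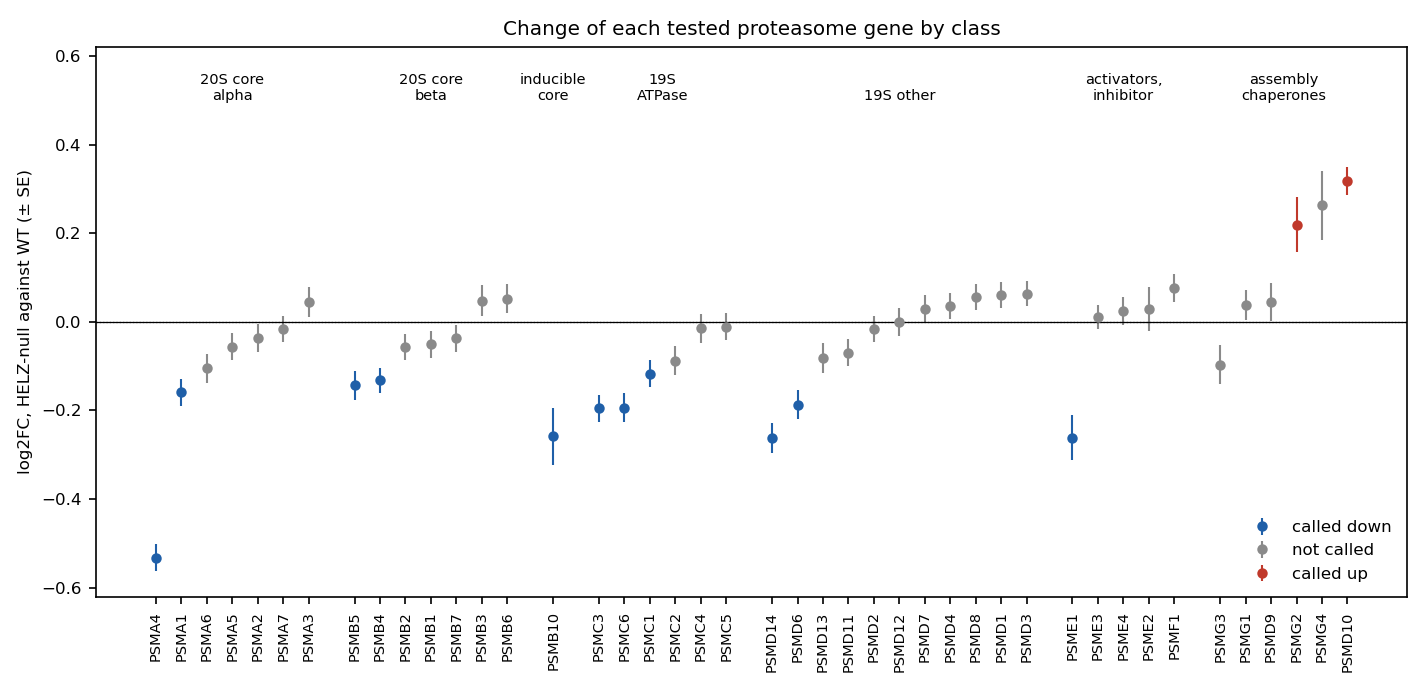
Fitted log2FC of HELZ-null against WT (y axis, points with ± SE, 2 libraries a group) for the 43 tested proteasome genes, grouped by their place in the complex and ordered by log2FC within a class. Blue genes were called down and red genes up at an edgeR FDR under 0.005, and PSMA4 at -0.53 stands below all others while PSMD10 and PSMG2, both chaperones, are the only red points.

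Among the alpha subunits of the 20S core, 2 of 7 fell and none rose, beside 15.5% and 13.9% of all tested genes (median log2FC -0.056, or -0.023 scaled by library size alone). PSMA4, which lies at chr15:78832747-78844759 of hg19, was measured at 369.8 and 358 CPM in WT and at 246 and 257 CPM in HELZ-null. The HELZ-null libraries were both far below the WT libraries, and PSMA4 fell by 30.8% (log2FC -0.53 ± 0.030 SE, edgeR FDR 5.58e-18). PSMA1 (chr11:14526420-14665181) stood at 219 and 221 CPM in WT against 194 and 199.8 CPM in HELZ-null, and fell by 10.4% (log2FC -0.16 ± 0.030 SE, edgeR FDR 4.30e-05). In percent, the fitted decrease of PSMA4 was about 3 times that of PSMA1, and the difference between the 2 genes was not tested. Without HELZ-null replicate 1, PSMA1 was no longer called.

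The other alpha subunits had log2FC from -0.11 to 0.045 and were not called. PSMA6, the lowest of them by log2FC (edgeR FDR 0.00848), was called down with the replicate block. PSMA7, which had the highest WT level of the class after PSMA4, stood at 274 and 281 CPM in WT and at 272 and 277 CPM in HELZ-null, with overlapping groups (log2FC -0.016, edgeR FDR 0.69). PSMA5, the lowest of the class by FPKM, had a log2FC of -0.056 (edgeR FDR 0.142). The 7 alpha subunits occur in equal numbers in the barrel, yet PSMA4 went from 288 ± 6.18 FPKM (SD, n = 2) in WT to 204 ± 6.69 FPKM (SD, n = 2) in HELZ-null, while PSMA7 was at 259.9 ± 4.65 and 263 ± 3.13 FPKM (SD, n = 2 each).

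Among the constitutive beta subunits, 2 of 7 likewise fell, beside 15.5% of all tested genes, and none rose (median log2FC -0.051, or -0.018 scaled by library size alone). PSMB4, a beta subunit without a proteolytic site, stood at 335 and 332 CPM in WT and at 305 and 304 CPM in HELZ-null, and fell by 8.76% (log2FC -0.13 ± 0.028 SE, edgeR FDR 2.04e-04). It lies at chr1:151372036-151374413 and had the highest FPKM of all members in both genotypes. PSMB5, the chymotrypsin-like subunit and the main target of proteasome inhibitor drugs, lies at chr14:23485752-23504439. Its WT libraries held 197 and 189 CPM and its HELZ-null libraries 170.1 and 179 CPM, a decrease of 9.44% (log2FC -0.14 ± 0.033 SE, edgeR FDR 4.20e-04). Neither pair of groups overlapped, although PSMB4 was lost without either HELZ-null library, and PSMB5 without WT replicate 1 or HELZ-null replicate 1.

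The other catalytic subunits were not called. PSMB6, the caspase-like subunit, was at 138 and 137 CPM in WT and at 144 and 140.3 CPM in HELZ-null (log2FC 0.052 ± 0.033 SE, edgeR FDR 0.203). PSMB7, the trypsin-like subunit, was at 213 and 207 CPM in WT and at 204 and 206 CPM in HELZ-null (log2FC -0.037 ± 0.030 SE, edgeR FDR 0.340). Of the 3 proteolytic subunits of the constitutive core, PSMB5 was therefore the one that passed the test, and the differences between the 3 were not tested. PSMB2, the lowest of the class by FPKM, had a log2FC of -0.057 (edgeR FDR 0.115).

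Of the 5 inducible or tissue-specific core genes, only PSMB10 was among the tested genes. PSMB10, which replaces PSMB7 in the immunoproteasome, lies at chr16:67968409-67970767 and stood at 26.64 and 26.001 CPM in WT and at 21.4 and 22.5 CPM in HELZ-null. It fell by 16.4% (log2FC -0.26 ± 0.064 SE, edgeR FDR 0.00103), but was not called by DESeq2, without WT replicate 1 or without HELZ-null replicate 1. PSMB9, which replaces PSMB6, held 57 and 34 counts in WT and 21 and 27 in HELZ-null, or 0.908 and 0.829 CPM against 0.508 and 0.387 CPM. Both HELZ-null libraries were below both WT libraries, and in a fit that kept 16087 genes by the filterByExpr rule the log2FC was -0.998 with an edgeR FDR of 0.0248, which misses the threshold. The annotated spans of PSMB9 and PSMB8 overlap on opposite strands, and whether the counts used strand is not stated.

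The remaining members of that class were at or near 0. PSMB8, which replaces PSMB5, held 3 and 2 counts in WT and 0 and 8 in HELZ-null. PSMA8, an alpha subunit of the testis, held 0 counts in all 4 libraries, and PSMB11, a beta subunit of the thymus, held 1 count in HELZ-null replicate 2 and 0 elsewhere. A floor of 3 counts corresponds to between 0.0430 and 0.0732 CPM per library, so these genes could not be compared at this depth.

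The ATPase ring of the 19S base had 3 of 6 members that fell, beside 15.5% of all tested genes, and all 6 log2FC were below 0 (median -0.10), or 4 of 6 when scaled by library size alone (median -0.069). PSMC3 (chr11:47440320-47448024) stood at 211 and 207 CPM in WT and at 184 and 182 CPM in HELZ-null, and fell by 12.6% (log2FC -0.19 ± 0.031 SE, edgeR FDR 1.56e-06). PSMC6 (chr14:53173896-53195308) stood at 134 and 134 CPM in WT and at 116 and 118 CPM in HELZ-null, and fell by 12.6% as well (log2FC -0.19 ± 0.033 SE, edgeR FDR 7.96e-06). For both ATPases the difference between genotypes was several times that between replicates, and both calls held with each library left out.

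PSMC1 (chr14:90722871-90741773) stood at 227 and 224 CPM in WT and at 204 and 211 CPM in HELZ-null, a decrease of 7.77% (log2FC -0.12 ± 0.030 SE, edgeR FDR 0.00166). It was not called with scaling by library size alone, or without either HELZ-null library, and 76.1% of its exon bases are overlapped by NRDE2 on the opposite strand. RefSeq also lists 13 pseudogenes of PSMC1, whose reads the counting may have shared. PSMC2, the lowest of the ring by FPKM, was at 158 and 157 CPM in WT and at 148 and 149 CPM in HELZ-null (log2FC -0.087, edgeR FDR 0.0235), and PSMC5, the highest, had overlapping groups (log2FC -0.011, edgeR FDR 0.804, with the sign reversed under library size scaling).

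Of the other 11 subunits of the regulatory particle, 2 fell, beside 15.5% of all tested genes, and none rose (median log2FC -0.00070), while scaling by library size alone gave a median of 0.032 and called PSMD3 up. PSMD14, the deubiquitinase that removes ubiquitin chains from a substrate before it enters the core, lies at chr2:162164936-162268228. It was measured at 128 and 127 CPM in WT and at 104 and 108 CPM in HELZ-null, and fell by 16.6% (log2FC -0.26 ± 0.034 SE, edgeR FDR 4.07e-08). PSMD6, a scaffold subunit of the lid, lies at chr3:63996226-64009686. It stood at 175 and 168 CPM in WT and at 153 and 149 CPM in HELZ-null, and fell by 12.1% (log2FC -0.19 ± 0.032 SE, edgeR FDR 9.07e-06). Both lid genes kept their call with each library left out.

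The remaining 9 of these subunits had log2FC from -0.082 to 0.064. PSMD3, the highest of them by FPKM, was at 383 and 369 CPM in WT and at 398 and 389 CPM in HELZ-null (log2FC 0.064, edgeR FDR 0.0688). PSMD12, the lowest by FPKM, is a lid gene at chr17:65334032-65362721 and thus close to HELZ on the same chromosome. It stood at 196 and 192 CPM in WT and at 197 and 191 CPM in HELZ-null, with nearly equal means (log2FC -0.00070 ± 0.031 SE, edgeR FDR 0.989), and its sign turned under several alternatives. PSMD4, a ubiquitin receptor of the particle, had a log2FC of 0.035.

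Counted by particle, 4 of 14 constitutive 20S core genes fell (median log2FC -0.053) and 5 of 17 regulatory particle genes fell (median -0.017, or 0.017 scaled by library size alone), beside 15.5% of all tested genes, and no gene of either particle rose, apart from PSMD3 when scaled by library size alone. The 31 genes of the 26S particle had a median log2FC of -0.051, with 23 below 0 and 8 above 0, and scaled by library size alone it was -0.018, with 18 below 0 and 13 above 0. No difference between the core and the regulatory particle was tested.

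Among the activators and the inhibitor, 1 of 5 fell, beside 15.5% of all tested genes, and none rose (median log2FC 0.024), while scaling by library size alone gave a median of 0.058 and called PSMF1 up. PSME1, which forms the PA28 activator ring with PSME2, lies at chr14:24605372-24608176 and stood at 43.0 and 43.3 CPM in WT and at 36.1 and 35.8 CPM in HELZ-null. It fell by 16.6% (log2FC -0.26 ± 0.051 SE, edgeR FDR 5.25e-05), with replicates that lay close together in each genotype. Its partner PSME2 was at 39.5 and 40.6 CPM in WT and at 41.5 and 40.3 CPM in HELZ-null, with overlapping groups (log2FC 0.029 ± 0.051 SE, edgeR FDR 0.676). The pair of PA28 genes, which lie close together on chromosome 14, therefore had different outcomes in the test, and the difference itself was not tested. PSME3, a nuclear activator and the highest of the class by FPKM, had a log2FC of 0.012, and PSME4, the lowest, one of 0.024. PSMF1, the inhibitor, stood at 190.3 and 181 CPM in WT and at 196 and 196 CPM in HELZ-null (log2FC 0.076, edgeR FDR 0.0464).

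The assembly chaperones included both genes that rose, 2 of 6 beside 13.9% of all tested genes, and 5 of 6 tested members had a log2FC above 0 (median 0.13, or 0.17 scaled by library size alone). PSMD10, which escorts a base ATPase during assembly, lies at chrX:107327437-107334779. It was measured at 145 and 142 CPM in WT and at 181 and 177 CPM in HELZ-null, and rose by 24.7% (log2FC 0.32 ± 0.032 SE, edgeR FDR 7.09e-11). PSMG2, which with PSMG1 guides the alpha ring, lies at chr18:12658042-12728944. Its WT libraries held 23.4 and 25.4 CPM and its HELZ-null libraries 29.1 and 27.7 CPM, an increase of 16.4% (log2FC 0.22 ± 0.063 SE, edgeR FDR 0.00416). The PSMG2 call was near the threshold and was lost by DESeq2, by the filterByExpr rule, and without any one of WT replicate 1, HELZ-null replicate 1 or HELZ-null replicate 2.

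PSMG4, which pairs with PSMG3 in alpha ring assembly, lay just outside the threshold, and was called up with the replicate block, with scaling by library size alone, with all genes that had a count, and without WT replicate 2. It stood at 14.5 and 16.3 CPM in WT and at 19.2 and 17.7 CPM in HELZ-null (log2FC 0.26 ± 0.078 SE, edgeR FDR 0.00573). Its groups did not overlap, but its replicates were the farthest apart of the 43 tested members. PSMG1 and PSMG3, the respective partners of PSMG2 and PSMG4, had log2FC of 0.039 and -0.097 and were not called, and PSMD9 had one of 0.045. PSMD5, a further base chaperone, held 4 and 3 counts in WT and 1 and 3 counts in HELZ-null and was not tested. Its gene model is 3479 bases wide, and the files do not show whether so few counts give its mRNA level.

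**Figure D2:**
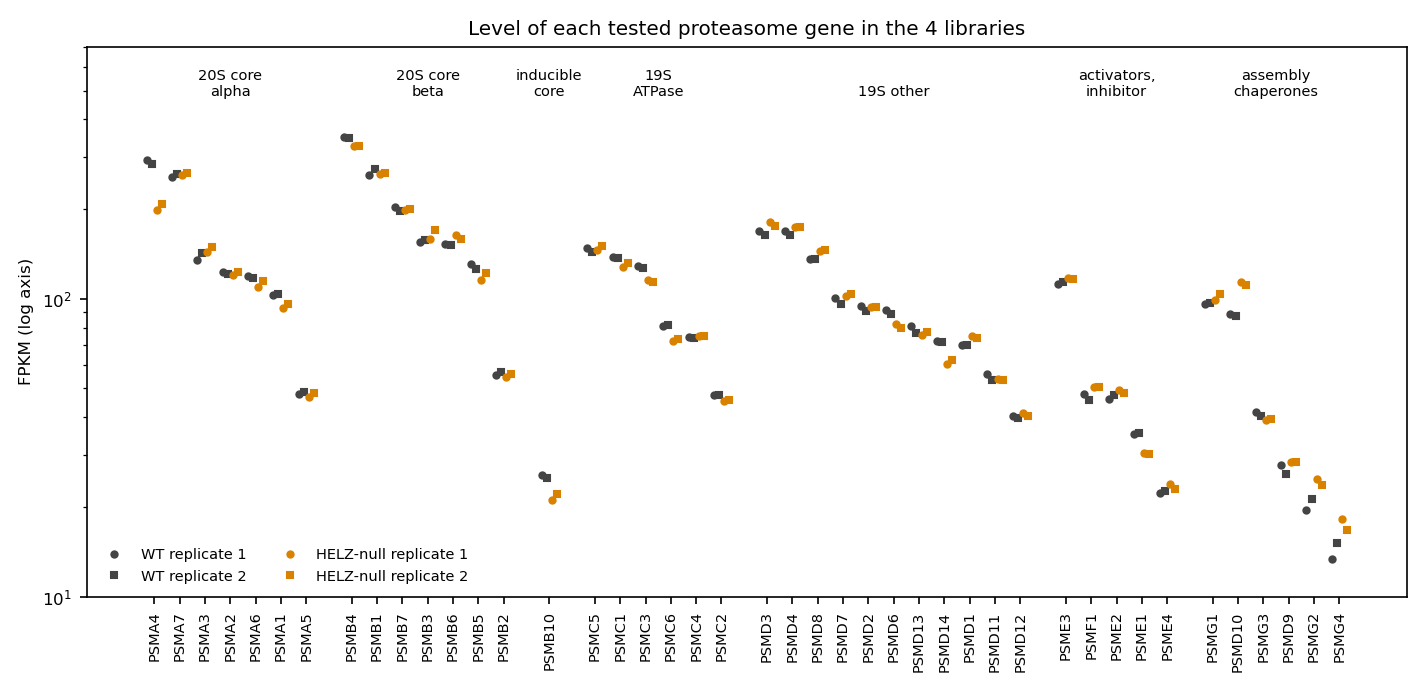
FPKM (log y axis) of the 43 tested proteasome genes in each of the 4 libraries, by class and in order of the mean of the WT libraries. Circles are replicate 1 and squares replicate 2, grey WT and orange HELZ-null; the core genes reach the highest levels, with PSMB4 at 348 FPKM in WT, and the chaperone PSMG4 is the lowest gene in both genotypes, at 14.3 FPKM in WT.

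The subunits of one particle were far from equal in mRNA level. Across the 31 genes of the 26S particle, FPKM in WT ran from 40.0 ± 0.468 (SD, n = 2) for PSMD12 to 348 ± 1.53 (SD, n = 2) for PSMB4, an 8.71-fold range. In HELZ-null cells the same genes spanned 40.9 to 325 FPKM, a 7.94-fold range, again between PSMD12 and PSMB4. The order was nearly the same in both genotypes: PSMA4 went from rank 2 to rank 4, and the largest shift was that of PSMC6 from rank 22 to rank 25. Neighbours in this order were often closer than their spread, as for PSMA7 (259.9 ± 4.65 FPKM) and PSMB1 (266 ± 8.34 FPKM; SD, n = 2 each).

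Levels were related to the width of the gene model by which the counts were divided. The 7 subunits with models wider than 3000 bases were at 40.0 to 92.7 FPKM in WT, and the 24 others at 71.8 to 348 FPKM. The catalytic subunits PSMB5, PSMB6 and PSMB7 stood at 128 ± 3.71, 152 ± 0.515 and 199.9 ± 3.66 FPKM in WT (SD, n = 2 each), and PSMB10 at 25.3 FPKM. Chaperones and activators were mostly lower, with PSMG4 at 14.3 and PSME4 at 22.5 FPKM, and PSME3 and PSMG1 were the highest of them at 113 and 96.5 FPKM.

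The positions of the members were compared with those of the other tested genes on hg19, because runs of neighbouring genes moved together in this comparison. For each member the median log2FC of the 20 nearest tested genes was taken. For 40 of 43 members this median lay within 0.1 of 0, and the 3 exceptions were PSMA4, PSMD6 and PSMD10. Of the 40 other members, 9 fell (22.5%) and 1 rose, PSMG2, beside 15.5% and 13.9% of all tested genes.

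Around PSMA4, on the distal long arm of chromosome 15, the 20 nearest tested genes had a median log2FC of -0.36. All 20 were below 0 and 15 were called down. PSMA4 was 0.18 lower on the log2 scale than that median, and 14 of the 176 other tested genes within 15 Mb on either side were lower than PSMA4. Of these 176 genes, 130 fell and 5 rose, beside 15.5% and 13.9% of all tested genes. The 10 genes above 0 lay mostly at the proximal end of this window. The part of the neighbouring genes' shift in the value of PSMA4 was not tested.

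PSMD6, on the short arm of chromosome 3, had neighbours with a median log2FC of -0.21, of which 17 of 20 were below 0 and 11 were called down. Its own log2FC differed from that median by 0.027. Within 15 Mb on either side, 75 of 123 other tested genes fell and 0 rose, beside 15.5% and 13.9% of all tested genes. Of these 123 genes, 68 were lower than PSMD6. PSMD10, on the X chromosome, had neighbours with a median log2FC of 0.31, of which 17 of 20 were above 0 and 14 were called up, and its own value differed by 0.0053. Within 15 Mb, 29 of 78 other genes rose and 12 fell, beside 13.9% and 15.5% of all tested genes. Of those 78 genes, 17 were higher than PSMD10, and their median was 0.091. The part of the neighbouring genes' shift in the 2 values was not tested.

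For the 10 called genes outside these stretches, the median of the neighbours lay within 0.1 of 0, as chosen above. PSMD14 fell by 0.26 on the log2 scale where its neighbours had a median of 0.028, PSME1 fell by 0.26 where theirs was 0.024, and PSMB10 fell by 0.26 where theirs was 0.024. PSMC3 and PSMC6 both fell by 0.19 beside medians of 0.016 and 0.019. PSMG2 rose by 0.22 beside a median of 0.046. PSMB4 fell by 0.13 beside a median of 0.029, PSMB5 by 0.14 beside -0.023 and PSMA1 by 0.16 beside -0.032. PSMC1 was the nearest to its neighbours, which had a median of -0.062 with 15 of 20 below 0, beside its own -0.12. No difference between a gene and its neighbours was tested.

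The motif was found in promoters of called and of uncalled members. Of the 11 genes that fell, PSMA4 and PSME1 held it, in 2 of 14 windows (14.3%), beside 13.3% of windows over all genes. Of the 2 genes that rose, PSMG2 held it. Members that were not called held it in 10 of 28 windows (35.7%). Among them were PSMB3, PSMC5, PSMD3 and PSMD12 printed above, whose log2FC ran from -0.011 to 0.064. The difference between called and uncalled members was not tested. No motif letters in a window says nothing about binding elsewhere.

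NFE2L1, the factor that raises proteasome transcription, was not called. It stood at 212 and 209 CPM in WT and at 209.9 and 208 CPM in HELZ-null (log2FC -0.011 ± 0.030 SE, edgeR FDR 0.788). NFE2L2, the related factor of the oxidative stress response, was at 57.7 and 57.9 CPM in WT and at 65.2 and 60.8 CPM in HELZ-null (log2FC 0.12, edgeR FDR 0.0256). Of the 11 tested genes of the 12 in the NFE2L1 pathway, 2 fell (18.2%, beside 15.5% of all tested genes) and none rose, whereas scaling by library size alone called 1 down, DDI2, and 4 up, BACH1, NFE2L2, NFE2L3 and SYVN1. DDI2, the protease that cuts NFE2L1 into its active form, stood at 58.1 and 51.4 CPM in WT and at 44.8 and 44.7 CPM in HELZ-null (log2FC -0.30 ± 0.050 SE, edgeR FDR 5.65e-06). NGLY1, the enzyme that removes its sugar chains, fell too, from 55.2 and 59.98 CPM to 51.4 and 49.6 CPM (log2FC -0.19 ± 0.047 SE, edgeR FDR 0.00126). NGLY1 was not called by DESeq2, with scaling by library size alone, with a fold limit of 1.2, or without WT replicate 2 or HELZ-null replicate 2. The neighbours of NGLY1, also on the short arm of chromosome 3, had a median log2FC of -0.20 with 18 of 20 below 0, while those of DDI2 had a median of -0.039.

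Proteasome subunits and partners whose symbols fall outside the rule were mostly not called. ADRM1, a ubiquitin receptor of the 19S particle, had a log2FC of -0.0094, SEM1, a small lid subunit, one of -0.032, and POMP, the maturation factor of the core, one of -0.011, and none was called. Of 20 genes for proteasome-associated proteins, 4 fell and 1 rose (median log2FC -0.029), beside 15.5% and 13.9% of all tested genes. Over all 54 tested related genes 9 fell and 3 rose, and scaled by library size alone 1 fell, DDI2, and 11 rose, beside 12% and 19.2% of all tested genes under that scaling. Of the 20 proteasome-associated genes, those that fell included VCP, the segregase that extracts ubiquitinated proteins (log2FC -0.12), the proteasome activator ZFAND5 (-0.12) and PITHD1 (-0.14). The gene that rose among these 20 was the shuttle factor UBQLN1 (0.0996). The log2FC of each of these named genes was smaller in absolute size than that of PSMC3 or PSMD14.

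Of 6 genes for ubiquitin and its activating enzymes, the polyubiquitin gene UBB rose (log2FC 0.10, edgeR FDR 0.00190) and RPS27A, which encodes ubiquitin fused to a ribosomal protein, fell (log2FC -0.10, edgeR FDR 0.00169). Large complexes of related build were taken for comparison. In the COP9 signalosome, which resembles the lid, COPS7B rose (log2FC 0.17) and COPS2 fell (log2FC -0.12) of 9 genes, whereas scaling by library size alone called 3 up, COPS5, COPS7B and COPS8, and none down. In the CCT chaperonin 1 of 8 genes fell, CCT4 (log2FC -0.12), beside 13.9% of all tested genes that rose and 15.5% that fell. Without HELZ-null replicate 2, DDI2 was the only one of the called related genes that kept its call, and without HELZ-null replicate 1 UBB, UBQLN1, RPS27A, COPS2, CCT4, VCP, ZFAND5 and PITHD1 lost theirs. The median log2FC was 0.025 and -0.033 in these complexes, beside -0.051 for the 26S particle. The differences between complexes were not tested.

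Several members share sequence or exons with other genes, which bounds how well their counts can be assigned. Of the tested members, 21 have pseudogenes in RefSeq, 52 in all, and 5 have over 20% of their exon bases under another annotated gene: PSMC1, PSMB10 (39.4%), PSMD7 (31.2%), PSMA2 (29.7%) and PSMA1 (26.7%). When a fold of at least 1.2 was demanded in the test, PSMA4 was the single member that remained called, and without HELZ-null replicate 1 the number that fell was 6, namely PSMA4, PSMC3, PSMC6, PSMD6, PSMD14 and PSME1.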

How the data were processed

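RNA-Seq of 2 WT and 2 HELZ-null HEK293T libraries was used. Per the study's methods, ribosomal RNA reads were first filtered out by the authors with Bowtie2, the remaining read pairs were aligned by TopHat2 to hg19, and QuasR gave the gene counts. Versions, the annotation, strand use and whether both mates were counted are not given in the sources used here. The count totals were above the numbers of mapped reads stated in the paper. Whether this came from counting both mates was not tested. The authors deposited read counts without normalization, with a gene width. Their deposited comparison also holds a log2 fold change, a mean log2 CPM, a p-value and an FDR for each gene, none of which was used. Its 10978 gene names, chosen by the authors at FPKM above 2, set the tested genes, of which 7 had 0 counts.

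Counts were tested here with edgeR 4.0.16 in R 4.3.3 (TMM, factors from 0.987 to 1.01, estimateDisp, glmQLFit, glmQLFTest, genotype only), with Benjamini-Hochberg adjustment. The biological coefficient of variation was 2.60%. CPM used the counts of the tested genes with TMM factors, and FPKM used total counts without them. Floors cover counting error only, and SE of log2FC come from the fit. Chi-square per degree of freedom between replicates was 4.16 in WT (10958 genes) and 3.01 in HELZ-null (10960 genes), above the noise of independent counts. Mates of a pair that were counted singly would not be independent and would raise it. All 4 libraries entered as separate samples. No exact permutation test of 2 against 2 libraries can go below a two-sided p of 0.333.

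Members and lists were chosen with earlier results of these data known. Named genes were HELZ, every called member, the catalytic beta subunits and their inducible counterparts, the highest and lowest FPKM of each class, ADRM1, SEM1, POMP, NFE2L1, NFE2L2 and every called related gene but 1, which is not reported here. Others (PSMA2, PSMA6, PSMB1, PSMB3, PSMD4, PSMD7, PSME2, PSMF1, PSMG1, PSMG3, PSMG4, PSMD9, PSMD5, PSMA8 and PSMB11) complete a class or a pair, hold the motif or bound a level or an overlap, and were added after their values were seen. Positions came from GENCODE on GRCh37 for 10379 tested genes by symbol and 514 by an older symbol, and 85 were not placed. Promoters came from RefSeq. DESeq2 1.42.0, other scalings, filters, a fold limit, a replicate block and single libraries left out were tried as alternatives. The steps were tested on simulated data. Tables and figures used Python 3.11.15, pandas 2.3.3 and matplotlib 3.10.9.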

Additional observations from a re-analysis of the deposited data

How the results depend on the processing

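With 2 libraries a genotype, a call rests on a spread shared across genes, and genes near the floor cannot be compared. PSMA4 was called under all 12 alternatives, and PSMC3, PSMC6, PSMD6, PSMD10, PSMD14 and PSME1 under 11, all but the fold limit. A lone library left in a genotype was assumed to vary like the pair of the other. Where a cause is not named, the cause was not tested.

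A fold of at least 1.2 left 217 genes up and 318 down of all tested, 0 members up and 1 down (1 alpha subunit, PSMA4, and 0 in every other class), and 0 related genes in either direction. DESeq2 called 1 member up (PSMD10) and 0 inducible core genes, with 1 related gene up (UBB) and 4 down (CCT4, DDI2, RPS27A and VCP). The filterByExpr rule called 1 member up, PSMD10. Scaling by library size alone, which moved the median of all tested genes to 0.032, called 5 members up (1 of the other regulatory particle subunits, 1 of the activators and inhibitor), and 11 related genes up and 1 down (DDI2). It put the median log2FC at 0.017 for all members and for the 19S particle, -0.023 for alpha subunits, -0.018 for beta subunits and the 26S particle, -0.069 for ATPases, 0.032 for the other regulatory subunits, 0.058 for activators and inhibitor, 0.17 for chaperones and -0.020 for the 20S core. Among the genes named by rule it reversed the sign of ADRM1 (0.024), NFE2L1 (0.022), POMP (0.022), PSMA7 (0.017), PSMC5 (0.022), PSMD12 (0.032) and SEM1 (0.00072), none of them called in either fit. PSMD12 also reached 0.0012 by DESeq2, 0.00096 with RLE factors and 0.00071 with the replicate block.

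With single libraries left out, 6 to 13 members fell (6 without HELZ-null replicate 1) and 1 to 3 rose. By class, 1 to 3 alpha subunits fell, 0 to 2 beta subunits and 0 to 1 inducible core genes, 1 to 3 chaperones rose, and 0 to 1 of the activators and inhibitor rose. Related genes that fell numbered 1 to 11, with 1 without HELZ-null replicate 2, and those that rose 1 to 4. Medians ran from -0.034 to -0.016 for all members, -0.040 to -0.0079 for the 19S particle, -0.059 to -0.036 for the 26S particle, -0.12 to -0.089 for ATPases, -0.073 to -0.036 for beta subunits, -0.078 to -0.036 for alpha subunits, -0.013 to 0.017 for the other regulatory subunits, 0.0050 to 0.051 for activators and inhibitor and 0.13 to 0.16 for chaperones. The log2FC crossed 0 for ADRM1 (-0.032 to 0.011), PSMA7 (-0.033 to 0.0020), PSMC5 (-0.035 to 0.017), PSMD12 (-0.019 to 0.019) and PSME4 (-0.0013 to 0.052).

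The replicate numbers are shared by the genotypes, and deviations of same-numbered libraries from their group means correlated at 0.034. With 2 libraries a group, both pairs give the same value by construction. It therefore cannot show whether same-numbered libraries were prepared together, which the labels do not say. The replicate block gave 3 members up (PSMG4 added) and 12 down (PSMA6 added), 5 related genes up, and 1677 genes up and 1841 down of all tested.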
